A study of Homo sapiens with 4 samples.

Results

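The histone and lysine acetyltransferases described here are EP300, CREBBP, KAT2A, KAT2B, KAT5, KAT6A, KAT6B, KAT7, KAT8 and ATAT1. The members were chosen by name, and every probe that the authors' normalized table gives one of these gene symbols was taken, which gave 12 probes for 10 of the 34755 genes on the array and 12 of its 58201 probes. SUM149 is an established line of inflammatory breast cancer cells, and its RNA was measured on 4 two-colour Agilent arrays. 1 array held RNA of untreated cells, and 1 array each held RNA of cells kept for 3, 6 or 12 h in 2.5 uM of ACY1215 (Ricolinostat), an inhibitor of the deacetylase HDAC6. Cy5 labelled the sample and Cy3 a reference common to the 4 arrays, which the labels call a pool of the untreated and treated cells. Each time point therefore has 1 array of 1 cell line, no test between time points was possible, and no p-value is given. Cells given vehicle for 3, 6 or 12 h were not analysed here, so hours in culture and hours of drug cannot be told apart.

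Acetyltransferases move the acetyl group of acetyl-CoA onto the side chain of lysine, and deacetylases such as HDAC6 take it off. On histone tails the mark loosens chromatin and is read by bromodomain proteins at active promoters and enhancers. Most of the enzymes work as the catalytic subunit of a large complex, and ATAT1 differs from the rest because its main substrate is α-tubulin inside the microtubule, the same acetyl group that HDAC6 and SIRT2 remove.

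Of the 10 genes, 7 were lower in treated cells at each of the 3 times. Of all genes measured, 48.6% were below zero at 3 h, 47.2% at 6 h and 47.5% at 12 h. In the values reported KAT2A, KAT5 and CREBBP were furthest below untreated cells at 12 h, whereas KAT6B was lowest under some other processings. KAT2B and KAT6A, the paralogs of KAT2A and KAT6B, were not among the 7 lower genes. For orientation, the promoter stretches of 4 members are shown, chosen after their values were seen. KAT5 and KAT7 had the deepest falls at 3 h in the values reported, and the paralogs KAT2A and KAT2B moved apart by 12 h. The sequences are RefSeq's, on GRCh38.p14, 250 bases upstream of the annotated start, 5′ to 3′ on the strand of the gene, and come from chr11:65712002-65712251 (KAT5, + strand), chr17:49788431-49788680 (KAT7, + strand), chr17:42121368-42121617 (KAT2A, - strand) and chr3:20040196-20040445 (KAT2B, + strand). Capitals mark a match on either strand to GGGCGG (GC box), TGACG (CRE half-site) or CCGGAAG (ETS site), and matches that touch or overlap run together.
KAT5: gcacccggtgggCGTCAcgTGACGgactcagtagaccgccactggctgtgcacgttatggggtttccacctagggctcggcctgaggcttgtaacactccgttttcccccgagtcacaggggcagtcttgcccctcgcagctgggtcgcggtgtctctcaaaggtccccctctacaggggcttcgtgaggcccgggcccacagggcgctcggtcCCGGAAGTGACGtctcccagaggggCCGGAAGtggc
KAT7: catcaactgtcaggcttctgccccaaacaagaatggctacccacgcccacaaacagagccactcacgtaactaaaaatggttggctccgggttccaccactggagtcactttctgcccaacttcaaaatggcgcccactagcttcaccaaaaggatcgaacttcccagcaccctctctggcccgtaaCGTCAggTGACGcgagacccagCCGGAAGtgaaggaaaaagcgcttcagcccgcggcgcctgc
KAT2A: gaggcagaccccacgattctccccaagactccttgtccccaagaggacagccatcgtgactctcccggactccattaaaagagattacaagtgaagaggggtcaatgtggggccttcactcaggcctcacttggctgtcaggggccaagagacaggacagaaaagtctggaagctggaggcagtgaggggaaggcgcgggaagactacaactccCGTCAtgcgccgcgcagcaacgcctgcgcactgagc
KAT2B: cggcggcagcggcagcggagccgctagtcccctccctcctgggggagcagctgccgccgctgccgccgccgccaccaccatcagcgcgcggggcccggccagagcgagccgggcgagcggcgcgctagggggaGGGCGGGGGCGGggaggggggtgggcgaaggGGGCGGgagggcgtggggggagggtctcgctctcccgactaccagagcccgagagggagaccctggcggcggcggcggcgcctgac
KAT5 held 3 CRE half-sites and 2 ETS sites, and 1 of those ETS sites ran straight into a half-site. KAT7 held 2 half-sites and 1 ETS site, KAT2A held 1 half-site, and KAT2B held 3 GC boxes and no half-site. The table had 11 such stretches for 8 of the 10 genes, not for KAT6A and KAT8. A half-site was present in 5 of the 11 stretches (1 each of CREBBP, KAT2A, KAT5, KAT7 and ATAT1), compared with 21.2% of all 35116 promoter stretches. An ETS site was present in 2 of the 11, compared with 8.52% of all stretches, and a GC box in 6 (of CREBBP, KAT2B, KAT6B and ATAT1), compared with 42.6%. CCAAT was found in 1 stretch, of KAT6B, compared with 32.0% of all stretches, and TATAAA (10.7%) and the full palindrome TGACGTCA (1.65%), which counts as a pair of overlapping half-sites, were found in 0 of the 11. GC content was 80.8% in the KAT2B stretch and 58.8% in that of KAT2A, with a median of 58% over all stretches. A match is a description of these letters and not a site of binding.

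The 12 probes were well above background in both channels on each of the 4 arrays, so no member was lost to a filter on low values. A change is the log2 Cy5/Cy3 ratio of a treated array less the same ratio on the untreated array, read on the probe with the brighter Cy3 signal where a gene has several. Error was taken from 297 to 298 probes that are spotted 9 or more times on each array. Among repeated spots a log2 change had a technical SD of 0.15 at 3 h, 0.12 at 6 h and 0.12 at 12 h. It covers spotting and scanning and not the spread between cultures. A gene is said here to have fallen or risen where its change was larger than 2 technical SDs, and a change of 1.5-fold or more is named as such. In bulk RNA, less transcript per cell and fewer cells with the transcript cannot be told apart.

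At 3 h 5 of the 10 genes fell, 4 were within 2 technical SDs, and ATAT1 alone was above that limit, on a damaged spot from which no direction is read (its other probe changed by 0.03). Over all genes measured, 8.39% fell and 16.4% rose by that criterion. At 6 h 7 fell and 3 rose, compared with 17.2% and 24.5% of all genes. At 12 h 7 fell, 2 rose and 1 was within the error, compared with 18.5% and 23.6% of all genes. The same 7 genes were below zero at 3, 6 and 12 h, namely EP300, CREBBP, KAT2A, KAT5, KAT6B, KAT7 and KAT8. Of all genes 48.6%, 47.2% and 47.5% were below zero at these times, and 35.7%, 61.9% and 70.9% with each array only centred on its median. The median log2 change of the 10 genes was -0.30 at 3 h, -0.50 at 6 h and -0.50 at 12 h, beside 0.0075, 0.016 and 0.014 over all genes.

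By the 1.5-fold criterion, KAT5 and KAT7 fell at 3 h, where 1.96% of all 20766 genes measured did. KAT5 and KAT6B did so at 6 h, with 4.42% of 20342 genes. CREBBP, KAT2A, KAT5 and KAT6B did so at 12 h, with 5.13% of 20479 genes. In the values reported ATAT1 rose 1.5-fold at 6 and 12 h, where 9.4% and 8.1% of all genes rose. At 3 h, where 6.87% of all genes rose, its ratio was past 1.5-fold as well, on the damaged spot. Counted either way and with that spot, 3, 3 and 5 of the 10 members were past 1.5-fold at 3, 6 and 12 h, with 8.83%, 13.8% and 13.2% of all genes. At 2-fold KAT5 fell at 6 h and KAT2A at 12 h, where 3.75% and 3.46% of all genes changed either way. At 3 h 2.06% of all genes changed 2-fold (1.69% as rises), and of the members the damaged ATAT1 spot alone was past 2-fold. The balance of rises and falls over the whole array depended on the normalization. Rises were 61.2% of all genes changed 1.5-fold at 12 h and 23.0% when each array was only centred on its median, which moved the median of all genes to -0.16. Over 7 ways of making the values, rises were 51.1% to 86.8% of the changed genes at 3 h (77.9% as reported), 44.0% to 68.0% at 6 h (68.0%) and 23.0% to 61.2% at 12 h. The median of the 10 members under median centring was -0.76 at 12 h.

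**Figure D1:**
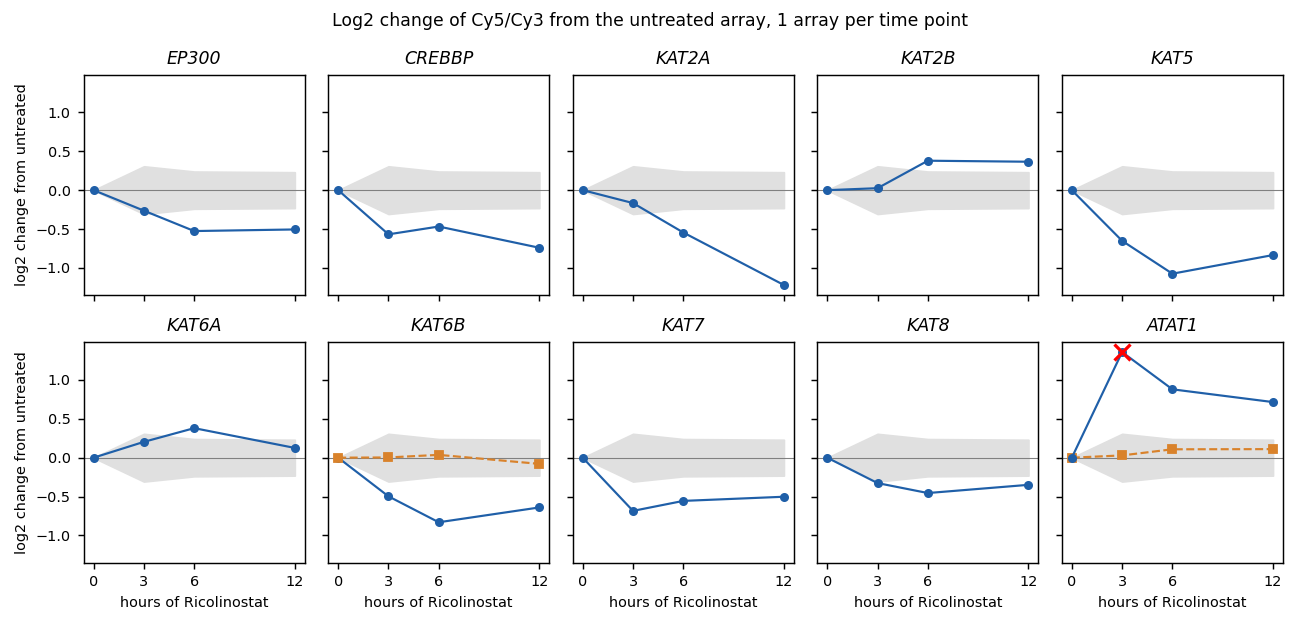
Log2 change of the Cy5/Cy3 ratio from the untreated array (vertical axis) against hours of Ricolinostat (horizontal axis) for each of the 10 genes, 1 array per time point. Blue points are the probe that represents the gene, orange squares the second probe of KAT6B and ATAT1, the grey band is 2 technical SDs to each side of zero, and the red cross marks the only spot of a member in a damaged area, that of ATAT1 at 3 h. KAT2A falls further at each time to -1.22, KAT5 is lowest at 6 h (-1.07), and KAT2B and ATAT1 end above the band at 0.37 and 0.72.

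EP300 and CREBBP encode p300 and CBP, closely related coactivators that are recruited by many transcription factors and acetylate histone H3 at enhancers. Both were lower at 12 h, CREBBP by 40.2% and EP300 by 29.6%. The normalised log2 Cy5 signal of EP300 was 8.57 in untreated cells, 8.11 at 3 h, 7.82 at 6 h and 7.77 at 12 h. In scanner units it was 389.5, 284, 190 and 172.5. Untreated cells were therefore the highest and the 12-h cells the lowest of the 4 arrays, with most of the drop made by 6 h. The log2 change of EP300 was -0.26 at 3 h, within 2 technical SDs, then -0.53 at 6 h and -0.51 at 12 h. The Cy3 signal of the same spot lay between 8.11 and 8.40 and was also highest on the untreated array, so that the drop was larger in Cy5 alone (-0.84 at 12 h) than in the ratio.

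CREBBP had a normalised log2 Cy5 signal of 8.02 in untreated cells and of 7.58, 7.62 and 7.24 at 3, 6 and 12 h (256.5, 190, 164.5 and 110 scanner units). Its change was -0.57 at 3 h, -0.47 at 6 h and -0.74 at 12 h. The fall was in place at the first time point and went further between 6 and 12 h, by 0.27. That step exceeded 2 technical SDs between those arrays (0.16). CREBBP minus EP300 was -0.30 at 3 h, 0.06 at 6 h and -0.24 at 12 h, with technical SDs of the difference of 0.22, 0.17 and 0.16. The pair of coactivator genes differed by less than 2 technical SDs at each time in these values. Over 7 processings the difference ran from -0.39 to 0.04 at 3 h, from -0.02 to 0.34 at 6 h and from -0.42 to -0.02 at 12 h. It was thus larger in at least 1 of them at 6 h and at 12 h than 2 technical SDs of the reported values. The technical SD of the other processings was not computed.

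KAT2A (GCN5) and KAT2B (PCAF) are paralogs that take turns as the catalytic subunit of the SAGA and ATAC coactivator complexes and acetylate histone H3 at promoters. They moved apart. KAT2A had a normalised log2 Cy5 signal of 10.90 in untreated cells, 10.59 at 3 h, 10.39 at 6 h and 9.78 at 12 h, and 2368.5, 2020, 1398 and 826.5 scanner units. Each array was lower than the one before. The change was -0.17 at 3 h, within the error, -0.54 at 6 h and -1.22 at 12 h, a fall of 57.1%. In the values reported KAT2A was the only member to pass 2-fold at 12 h, where 1.12% of all genes fell 2-fold. Its 12-h change ranged from -1.60 with median centring to -1.14 with Cy5 alone, over the 9 ways of processing tried.

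KAT2B had a dim spot whose normalised log2 Cy5 signal went from 6.10 in untreated cells to 6.34, 6.53 and 6.65 at 3, 6 and 12 h. In scanner units it was 38, 55, 57.5 and 62, over a local background near 24. Untreated cells were thus the lowest of the 4 arrays. The log2 change was 0.03 at 3 h, 0.38 at 6 h and 0.37 at 12 h. So close to background the size of the rise depended on the background correction, and at 12 h it ran from 0.22 with median centring to 1.32 with the Feature Extraction log ratio. The change was above zero at 3, 6 and 12 h in each of the 9 processings. With a single probe and no damaged spot, the mean of all probes and damaged areas left out repeat the reported values. KAT2A minus KAT2B was -0.19 at 3 h, -0.92 at 6 h and -1.59 at 12 h, with technical SDs of 0.22, 0.17 and 0.16. Over the 7 processings that keep the same probes and spots, the 12-h difference was between -2.50 and -1.59.

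**Figure D2:**
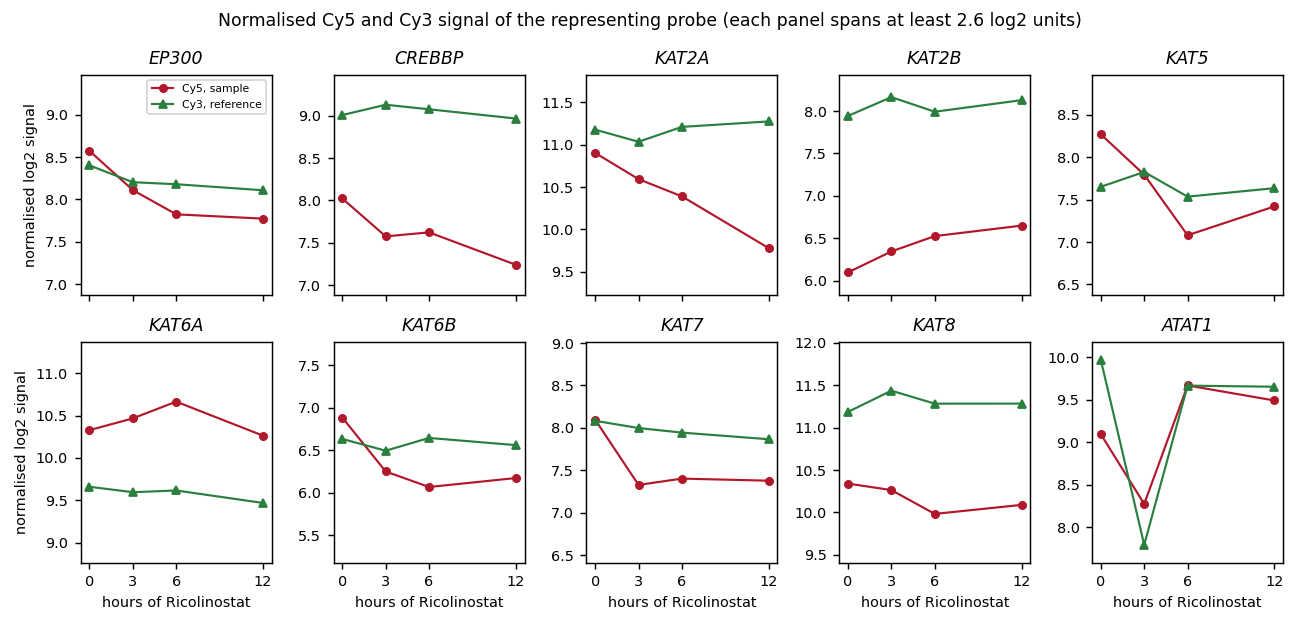
Normalised log2 signal of the Cy5 channel (red circles, the sample) and of the Cy3 channel (green triangles, the common reference) against hours of Ricolinostat, for the representing probe of each gene, 1 spot per array. Vertical axes differ between panels. For 9 genes the reference line is nearly level, within 0.29 log2 units over the 4 arrays, while for ATAT1 it drops from 9.97 to 7.79 at 3 h.

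The MYST family, named after founding members of the group, is the largest in this set and holds KAT5, KAT6A, KAT6B, KAT7 and KAT8. Of its 5 genes 4 fell at 3, 6 and 12 h and KAT6A did not. KAT5 encodes TIP60, which acetylates histone H4 and H2A and the kinase ATM in the response to DNA breaks. Its normalised log2 Cy5 signal was 8.27 in untreated cells, 7.79 at 3 h, 7.08 at 6 h and 7.42 at 12 h (300, 219, 98.5 and 129 scanner units). The untreated array was the highest and the 6-h array the lowest. The change was -0.65 at 3 h, -1.07 at 6 h (a fall of 52.5%) and -0.83 at 12 h (43.9%). In the values reported KAT5 was the only member past 2-fold at 6 h, where 0.939% of all genes fell 2-fold. Between 6 and 12 h it came back by 0.24, more than 2 technical SDs, and this step was upward in each of 7 processings (0.19 to 0.55).

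KAT7 encodes HBO1, which acetylates histones H3 and H4 and is known for its part in the licensing of replication origins. Its normalised log2 Cy5 signal was 8.10 in untreated cells and 7.33, 7.40 and 7.38 at 3, 6 and 12 h, and its scanner units were 262.5, 145.5, 133 and 123. The whole drop was present at 3 h, and the 3 treated arrays differed little. The change was -0.68, -0.56 and -0.50 at 3, 6 and 12 h, and neither of the later steps exceeded 2 technical SDs. In the values reported the 3-h fall of 37.8% was the deepest of any member at that time. It differed from that of KAT5 (36.3%) by less than the technical SD. KAT6B was lower than KAT7 at 3 h with normexp offset 1 (-1.07 and -0.94) and with the Feature Extraction log ratio (-1.55 and -0.91). The same held with the authors' table (-0.98 and -0.92) and without background subtraction (-0.85 and -0.84), but not with median centring or in Cy5 alone.

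KAT8 encodes MOF, which acetylates the tail of histone H4 and is the enzyme of the MSL and NSL complexes. Its normalised log2 Cy5 signal was 10.34, 10.26, 9.98 and 10.09 in untreated cells and at 3, 6 and 12 h, and its scanner units were 1574, 1602, 1034 and 1031.5. The untreated and 3-h arrays were close and the later pair lower. The log2 change was -0.33 at 3 h, -0.45 at 6 h and -0.35 at 12 h, a fall of 21.5%, the smallest of the 7 falls at 12 h. At 3 h it was -0.13 in Cy5 alone, and the Cy3 signal of that spot was highest on the 3-h array.

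KAT6A (MOZ) and KAT6B (MORF) are paralogs that acetylate histone H3 in complexes built on BRPF scaffold proteins. KAT6A had a normalised log2 Cy5 signal of 10.33 in untreated cells, 10.47 at 3 h, 10.66 at 6 h and 10.26 at 12 h (1508, 1806, 1676 and 1142 scanner units). Its change was 0.20 at 3 h, 0.38 at 6 h and 0.13 at 12 h, so it rose at 6 h alone and came down by 0.25 afterwards. At 12 h its sign was not settled, since it was -0.19 with median centring and -0.11 in Cy5 alone.

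KAT6B was read by a pair of probes that gave different values, both of them dim. On A_23_P388855, which is annotated to a RefSeq transcript and represents the gene here, the normalised log2 Cy5 signal was 6.89 in untreated cells, 6.25 at 3 h, 6.07 at 6 h and 6.17 at 12 h. The scanner units were 87, 45, 33 and 36 over a local background of 23 to 24, so the treated arrays were close to background. The change was -0.50, -0.83 and -0.64 at 3, 6 and 12 h. On A_33_P3287731, annotated to no RefSeq transcript, the Cy5 signal stayed between 30.5 and 33 units over a local background of 23 to 25. Its change was 0.00, 0.04 and -0.08. So near background this probe could hardly show a fall of the size read on the other, so it is no check of that fall. The mean of both probes, which takes in this dim one, was -0.36 at 12 h. KAT6B minus KAT6A, on the representing probes, was -0.70 at 3 h, -1.21 at 6 h and -0.77 at 12 h, with technical SDs of 0.22, 0.17 and 0.16. At 12 h this difference lay between -2.05 and -0.58 over 7 processings.

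ATAT1 is the enzyme that puts on the acetyl group that HDAC6, the target of the drug, takes off α-tubulin. It was read by a pair of probes annotated to different transcript variants, 1 bright and 1 dim, and their values differed. On A_33_P3402474, annotated to transcript variant 1, the Cy5 signal was 609 scanner units in untreated cells, 317 at 3 h, 810 at 6 h and 652 at 12 h. The Cy3 signal of the same spots was 879, 169, 704 and 720 units. Both channels were thus lowest on the 3-h array, and the spot there lay in a damaged area in which 25.3% of the spots nearby were defective. The change in the ratio was 1.36 at 3 h, 0.88 at 6 h and 0.72 at 12 h, whereas in Cy5 alone it was -0.96 at 3 h. The 3-h value is therefore given as measured on a damaged spot, and no direction is read from it. The 6-h and 12-h spots, and the untreated spot with 1.1% of defective neighbours, were outside damaged areas. Over 9 processings the change ranged from 0.49 to 0.91 at 6 h and from 0.39 to 0.76 at 12 h, so not all passed 1.5-fold. In Cy5 alone it was 0.55 at 6 h and 0.39 at 12 h. The normalised log2 Cy3 signal of the spot was 9.97 in untreated cells, 9.67 at 6 h and 9.65 at 12 h.

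On A_23_P70509, annotated to ATAT1 transcript variant 2, the Cy5 signal was 41, 47, 44.5 and 44 units, and the change was 0.03 at 3 h, 0.11 at 6 h and 0.11 at 12 h. Each of these was within 2 technical SDs, on a spot not far above background. The rise of ATAT1 at 6 and 12 h was thus seen on the bright probe only. The dim probe, over a local background of 21 to 23 units, had little room to show such a rise. Whether the variants differ was not tested. The deacetylases on the other side of this reaction were read beside it. HDAC6 changed by -0.41, -0.25 and -0.51 at 3, 6 and 12 h on its brighter probe and by -0.25, -0.0049 and -0.20 on its dimmer one. SIRT2, a cytoplasmic sirtuin that also acts on α-tubulin, changed by 0.27, 0.35 and 0.39 on the representing probe and by 0.03, 0.08 and 0.33 on the other. At 12 h the bright ATAT1 probe and the SIRT2 probes were thus above untreated cells and the bright HDAC6 probe below.

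The steps between arrays separated the members by their timing. The 6-h and 12-h arrays had the least technical error between them (SD 0.078 for a change) and almost no damage. Between 6 and 12 h KAT2A (-0.68), CREBBP (-0.27), KAT6A (-0.25) and ATAT1 (-0.16) fell, and 21% of all genes fell by that criterion. KAT5 (0.24) and KAT6B (0.19) rose, compared with 16.2% of all genes. EP300 (0.02), KAT2B (-0.01), KAT7 (0.05) and KAT8 (0.11) were within 2 technical SDs. KAT7 thus had its drop by 3 h, KAT5 and KAT6B had their lowest value at 6 h, and KAT2A had its largest step last. The last step also spans the longest interval, so step sizes are not rates.

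**Figure D3:**
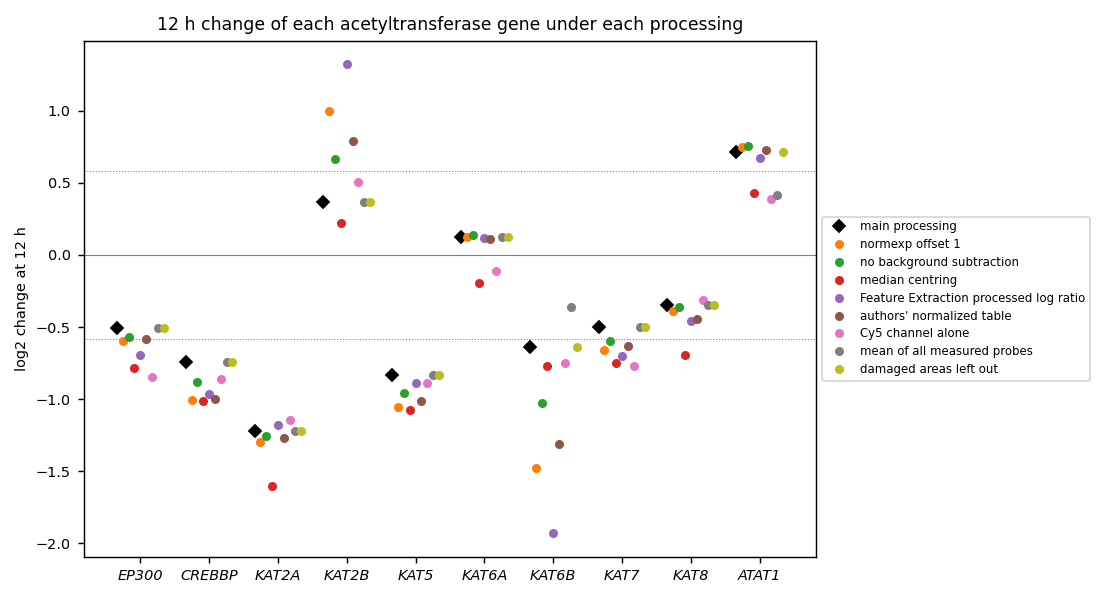
Log2 change at 12 h from untreated (vertical axis) of each acetyltransferase gene under 9 ways of processing the arrays (colours; black diamonds are the values reported), with dotted lines at 1.5-fold. EP300, CREBBP, KAT2A, KAT5, KAT6B, KAT7 and KAT8 lie below zero and KAT2B and ATAT1 above zero in each of the 9, and KAT6A runs from -0.19 to 0.14. Leaving out damaged areas repeats the values reported, and the mean of all probes does so except for KAT6B and ATAT1.

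The enzymes act in complexes, so lists of their partner subunits were read in the same way. Of all genes 47.5% were below zero at 12 h, and 70.9% were under median centring. The TRRAP and MEAF6 genes stand in a pair of lists each. Of the 11 subunits of the MSL and NSL complexes, which carry KAT8, all 11 were below zero at 12 h on the representing probes (47.5% of all genes were), with a median of -0.46 beside 0.014 over all genes, and 5 fell 1.5-fold (5.13% of all genes). These were MSL1 (-0.93), a scaffold of the MSL complex, MCRS1 (-0.76), KANSL2 (-0.72), HCFC1 (-0.71) and KANSL1 (-0.60). Other probes gave smaller values, -0.40 for MSL1 and -0.20 for KANSL2, and those of PHF20 (0.06) and WDR5 (0.05) were above zero. The smallest fall was that of MSL3 (-0.15), and the median of the list was -0.29 at 3 h and -0.42 at 6 h.

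Of the 9 subunits of the MOZ, MORF and HBO1 complexes, which carry KAT6A, KAT6B and KAT7, 6 were below zero at 12 h and 3 above (47.5% of all genes were below), the median was -0.36, and 3 fell 1.5-fold (5.13% of all genes). JADE2, a scaffold of the HBO1 complex, fell most (-1.61, and -1.53 on its other probe), with 9.58, 8.19, 7.43 and 7.69 as normalised log2 Cy5 signal in untreated cells and at 3, 6 and 12 h. ING5, a reader of methylated histone H3 in the same complexes, fell by 1.30, and BRPF1, a scaffold of MOZ and MORF, by 0.68. In Cy5 alone BRPF1 was 0.15, so its direction depended on the channel used. The largest rise was that of MEAF6 (0.23).

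The SAGA and ATAC list, whose enzymes are KAT2A and KAT2B, had 19 subunits, with 13 below zero and 6 above at 12 h (47.5% of all genes were below) and a median of -0.16. Of these 5 fell 1.5-fold and 0 rose, compared with 5.13% and 8.1% of all genes. They were TAF5L (-1.46), ZZZ3 (-1.04, and -0.96 on its other probe), CCDC101 (-0.71), TAF6L (-0.70) and TADA2A (-0.61). TAF5L lay in damage on the untreated array, and its other probes gave -0.77 and 0.01. Without spots in damaged areas the list kept 18 subunits, with a median of -0.11, and 4 fell 1.5-fold. MBIP, an ATAC subunit, had the largest rise (0.42, with -0.02 on another probe).

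The TIP60 list, whose enzyme is KAT5, had 17 subunits, with 13 below zero and 4 above at 12 h (47.5% of all genes were below) and a median of -0.14, and 3 fell 1.5-fold (5.13% of all genes). EPC1, a scaffold of the complex, had the largest fall (-1.82), on a spot that was in a damaged area in untreated cells. ING3 (-0.86, and -0.46 on its other probe) and EPC2 (-0.81), a paralog of EPC1, were outside such areas. Without damaged spots the list kept 16 subunits, with a median of -0.13 and 2 falls of 1.5-fold. The largest rise was that of MORF4L2 (0.31). Under median centring the medians of these 4 lists at 12 h were -0.81, -0.69, -0.44 and -0.53 in the order given, beside -0.16 over all genes.

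Genes listed as partners of p300 and CBP had a median above zero. Of 14 on the list 13 were measured, 10 of them above zero at 12 h and 3 below (47.5% of all genes were below), with a median of 0.40, and 4 rose 1.5-fold (8.1% of all genes). These were CITED2 (1.14), which competes with HIF1A for p300 and CBP, TP53BP2 (0.94), a p53-binding protein, CITED1 (0.73) and the transcription factor STAT3 (0.69). CITED2 had normalised log2 Cy5 signals of 8.91, 9.70, 9.70 and 9.96 in untreated cells and at 3, 6 and 12 h, while its other probe changed by 0.25. STAT3 changed by 0.28 on its other probe and by 0.35 in Cy5 alone. CITED1 was dim, with a normalised log2 Cy5 signal of 6.06 in untreated cells. Its 12-h change was 0.55 in Cy5 alone and 2.09 with the Feature Extraction log ratio, so its size is uncertain. RELA had the largest fall (-0.10). The median was 0.23 at 3 h and 0.45 at 6 h, and at 12 h it was 0.13 with median centring and 0.24 in Cy5 alone.

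**Figure D4:**
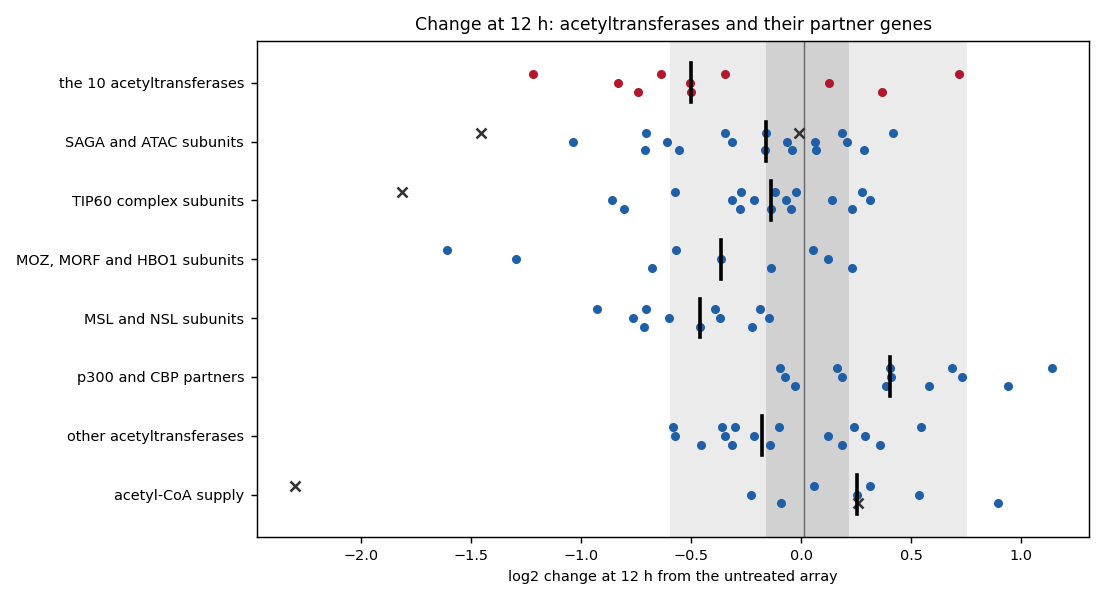
Log2 change at 12 h from untreated (horizontal axis) for the 10 acetyltransferases (red) and for the genes of 7 lists (blue), with black bars at each median. Crosses mark genes whose untreated spot was in a damaged area, and the grey bands hold 50% (dark) and 90% (light) of all genes measured. All points of the MSL and NSL list lie left of zero, and the p300 and CBP partners have their median at 0.40.

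A list of other acetyltransferases outside the set also held auxiliary subunits such as NAA16 and NAA25. Of its 17 genes 16 were measured, with 10 below zero and 6 above at 12 h (47.5% of all genes were below). Their median was -0.18, and -0.50 with median centring. Of these 0 genes were past 1.5-fold, compared with 13.2% of all genes. ELP3, the enzyme of the Elongator complex, had the largest fall (-0.58) and HAT1, which acetylates new histone H4 in the cytoplasm, the largest rise (0.55). Genes that supply acetyl-CoA were 9, with 3 below zero and 6 above at 12 h (47.5% of all genes were below). Their median was 0.25, which turned to -0.13 with median centring. ACSS2, which makes acetyl-CoA from acetate, rose by 0.89. ACLY, which makes it from citrate, was at -2.30 in the ratio and at 0.82 in Cy5 alone. Its untreated spot lay in a damaged area with a Cy3 signal of 6.83, compared with 9.85 to 9.97 on the other arrays, so no direction is read from it. Without damaged spots 8 genes of this list were left, with a median of 0.26.

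Facts of the arrays that touch these values are as follows. Median Cy5 signals of 36 to 40 units stood against a background of 24, 0 spots were saturated, and 63.3% to 67.0% of genes were well above background in Cy5. Damaged areas held 3.25% of the spots of the untreated array, 4.48% at 3 h, 0.248% at 6 h and 0% at 12 h, and among members they held the 3-h spot of ATAT1 A_33_P3402474 and no other. All 8 epithelial and basal markers and 2 of 3 receptors (not PGR) were well above background on each array. The leukocyte markers PTPRC, CD3E and CD14 were too, the last at 770 to 1150.5 units, as were 4 or 5 of 5 endothelial and fibroblast markers, and their part in the results was not tested. Although the labels call Cy3 a pool of these samples, it was brighter than Cy5 on each array for CREBBP, KAT2A, KAT2B and KAT8 after normalization. For KAT2B the log2 ratio of Cy5 over Cy3 was between -1.85 and -1.47. What a reference common to the arrays holds cancels in a change from untreated, but differences in its measured signal between arrays enter that change. For EP300 the log2 Cy3 signal was 8.40 in untreated cells and 8.11 at 12 h. Its 12-h change was -0.51 in the ratio and -0.84 in Cy5 alone.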

How the data were processed

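RNA of SUM149 cells was measured on 4 two-colour arrays, 1 per time point. The authors deposited, for each array, the median intensity of every spot and of its local background in both channels, as extracted by Feature Extraction 12.0.1.1, with that software's processed intensities and its log10 ratio of Cy5 over Cy3. A second file deposited by the authors holds normalized log2 ratios of the same arrays, and how they were normalized is not given in the sources used here. It followed the values made here with a correlation across probes of 0.972 to 0.974, and of 0.994 to 0.995 with a normexp offset of 1. Its column medians were 0.167 to 0.211 over probes well above background. All its sample columns were used, and its spots were matched by row and column.

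The median intensities were corrected with normexp (offset 50, which shrinks changes of dim probes), freed of control spots and of spots flagged as outliers, and normalized within arrays by loess and between arrays by Aquantile, in limma 3.58.1 and R 4.3.3. Tables were made in Python 3.11.15 with pandas 2.3.3, numpy 2.4.6 and scipy 1.17.1, and plots with matplotlib 3.10.9. A gene was represented by its probe with the highest mean Cy3 signal and counted as measured where Feature Extraction called that probe well above background in Cy5 and in Cy3 on both arrays compared. The number of arrays limits the precision, and no test was run. An area was taken as damaged where 10% or more of the spots in a window of 13 rows by 7 columns had an outlier flag or an aberrant Cy3 signal. With such spots left out, a member was read from its brightest probe outside them. In the lists a gene with no spot of its representing probe left was dropped.

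The members, gene lists, alternatives and thresholds were chosen with earlier results of these data known. All 10 members are named, with the gene of largest rise and of largest fall at 12 h in each list, HDAC6 and SIRT2. Other list genes, the promoters shown and the motifs searched were chosen after their values were seen. As alternatives, other settings were tried for background correction, normalization, the authors' table, Cy5 alone, the probes of a gene, the filter on dim probes, damaged areas and the threshold. The array was designed on another build than the GRCh38.p14 promoter table, so no probe coordinates are given. A marker read for the check of cell types is not reported here.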

Additional observations from a re-analysis of the deposited data

Results flagged for a closer look

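The Cy3 reference signal of the bright ATAT1 probe (A_33_P3402474) stood apart on the 3-h array. Its normalised log2 Cy3 signal was 9.97 in untreated cells, 7.79 at 3 h, 9.67 at 6 h and 9.65 at 12 h. The gap between the 3-h array and the nearest of the others was 0.854 of the whole range, above the critical value of Dixon's test for 4 samples, in 1 of 12 probes tested. Chance passes that value in about 1 of 20 groups. In scanner units the Cy3 signal was 169 at 3 h against 704 to 879 on the other arrays, and the Cy5 signal 317 against 609 to 810. The 3-h spot lay in a damaged area. With damaged areas left out the 3-h change of ATAT1 was 0.03, read from the other probe.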

How the results depend on the processing

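No paired analysis was possible because there is 1 array per time point, and for the same reason no array could be left out. Of 30 medians of the members under the alternatives 30 were below zero and 23 moved by less than 1 technical SD, and of 33 counts 17 stayed within 1.5 times. Some of these could not move. Every member probe was well above background on each array, so other filters on dim probes repeat the reported values. Leaving out damaged areas touched ATAT1 at 3 h alone. The count of members changed 1.5-fold at 3 h, 3 as reported, was 5 with normexp offset 1, without background subtraction, with the Feature Extraction log ratio and with the authors' table, and 1 at 2-fold. At 6 h, also 3, it was 8 with offset 1, with median centring and with the authors' table, 6 without background subtraction and with the Feature Extraction ratio, and 1 with the mean of all probes or at 2-fold. At 12 h, 5 as reported, it was 8 with offset 1 and with the Feature Extraction ratio, 3 with the mean of all probes and 1 at 2-fold. The median at 3 h (-0.30) was -0.50 in Cy5 alone. At 6 h (-0.50) it was -0.69 with median centring and -0.62 with the authors' table. At 12 h (-0.50) it was -0.63 with offset 1, -0.76 with median centring, -0.70 with the Feature Extraction ratio and -0.76 in Cy5 alone. The mean of all probes brings in the probes of KAT6B and ATAT1 whose change was within 2 technical SDs, and for the other settings the cause was not tested. Of 88 values of members past 1.5-fold 87 kept their sign and 77 their side of 1.5-fold, and ATAT1 at 3 h turned to -0.96 in Cy5 alone. The 88 include repeats of the reported values. These come from the mean of all probes for genes with 1 probe, and from leaving out damaged areas except for ATAT1 at 3 h. The mean pixel signal of a spot was not run, since it was not among the columns used here. KAT2B and KAT6B lie close to background, so their fold changes are the least certain in size.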
